A study of Mus musculus with 49 samples.

Results

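Claudins are the membrane proteins that build the strands of the tight junction, and 10 of their genes were followed here, namely Cldn1, Cldn2, Cldn3, Cldn4, Cldn6, Cldn7, Cldn12, Cldn14, Cldn15 and Cldn18. They were taken by gene symbol, as those known from liver, gut, stomach and epithelial progenitors, and each matched 1 of the 46078 Ensembl identifiers of the count table. The study asked how adult mouse hepatocytes lose their identity in culture and what the resulting cells can become. All libraries are from wild-type C57BL/6J mice. Hepatocytes were isolated from 10-week-old animals and sequenced fresh (FH, n = 3) or after 3 h, 1 day, 2 days, 4 days, 1 week or 2 weeks of monolayer culture on collagen with EGF (n = 3 each), and 2 libraries each came from 1-week cultures with 0.3 µM verteporfin, an inhibitor of Yap transcriptional activity, or with its solvent DMSO. DediHeps (n = 5) are the passaged hepatocyte-derived cells, each library a separately named culture, and dediHep aggregates (n = 3) are such cells clustered in low-attachment wells. DediHep-SOs (n = 3) are spherical organoids grown from dediHeps in Matrigel, and dediHep-BOs (n = 3) are budding organoids from dediHeps that carry a Cdx2 transgene. In the paper, spherical organoids were formed with added activators of Wnt signalling, which were left out for budding organoids. CLiPs (n = 3) are hepatocyte-derived progenitors induced with small molecules, FIPC-SOs (n = 3) are spherical organoids from fetal intestinal cells of E13.5 embryos, and ISC-BOs (n = 4) are budding organoids from small-intestinal crypts of 10-week-old mice.

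A tight junction closes the space between neighbouring epithelial cells, and the claudins present decide what it lets through. Some members, such as claudin-1 and claudin-14, tighten the seal, whereas claudin-2 and claudin-15 form channels that pass cations and water. In the liver, tight junctions line the bile canaliculi between hepatocytes and keep bile apart from blood. In the intestine, claudin-2 belongs to the crypt and the early epithelium, claudin-15 serves the sodium supply for nutrient uptake along the villus, and claudin-7 lies along the basolateral membrane. Claudin-6 is known from embryonic and other immature epithelia, claudin-4 from ducts, gut and skin appendages, and claudin-18 from stomach and lung.

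Libraries held 861047 to 3872936 UMI counts (unique molecular identifiers, each marking 1 captured transcript end), so that 3 counts in a library, the limit that a count of 0 allows, are 0.775 to 3.48 CPM (the count scaled to the library's total). Levels below are CPM scaled with TMM factors over all 49 libraries, and the limit just given is not. With TMM factors 4 counts in FH replicate 2 were 5.22 CPM, so the limit for FH is higher on this scale. Because 3′ ends are counted, a transcript gives 1 tag whatever its length. Hepatocyte markers, summed over 8 genes, were at 17316 to 22103 CPM in FH and at 57.5 to 107 CPM in dediHep-SOs, and intestinal markers at 2409 to 3260 CPM in ISC-BOs. Of 6 endothelial markers, 5 had no count in any dediHep library. Sums over 6 cholangiocyte markers ran from 17.0 to 103 CPM in FH, from 638 to 675 CPM at 3 h and from 1129 to 1364 CPM at 2 weeks. At 3 h nearly all of the sum was Sox9, at 603 to 632 CPM. The mesothelial marker list was at 0 CPM in FH, at 288 to 469 CPM at 2 weeks and at 451 to 1147 CPM in dediHeps. Nearly all of it was Msln alone, at 284 to 469 CPM at 2 weeks and 417 to 1137 CPM in dediHeps. These sums move with several of the claudins below, and their part in the results was not tested. In bulk RNA, fewer cells of a type and less RNA per cell cannot be told apart.

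Over the 49 libraries the 10 claudins fell into those present everywhere and those confined to some conditions. Cldn2 and Cldn12 had counts in 49 libraries and Cldn3 in 48, whereas Cldn15 had counts in 19 and Cldn6 in 26. Cldn2 ranged from a mean of 65.6 CPM ± 12 (SD, n = 3) at 1 day to 873 CPM ± 111 in dediHep-SOs. Cldn18 did not exceed 6.52 CPM in any library. Taken as shares of all counts from genes with a numbered Cldn symbol, the leading claudin changed from condition to condition. FH libraries had Cldn2 at 45.0% ± 7.8 and Cldn12 at 29.6% ± 7.3, the 3 h libraries Cldn14 at 58.3% ± 9.8, and the 1-day libraries Cldn3 at 38.3% ± 6.3 (SD, n = 3 each). From 4 days on Cldn2 led again, with 58.8% ± 2.6 at 4 days and 82.7% ± 6.6 (n = 5) in dediHeps. ISC-BOs spread their counts over Cldn2 at 43.8% ± 5.5, Cldn7 at 24.1% ± 3.4, Cldn15 at 12.9% ± 1.4 and Cldn3 at 11.3% ± 1.7 (n = 4). DediHep-BOs had the same members in the lead, with 44.6% ± 1.4, 19.4% ± 2.2, 10.1% ± 1.3 and 10.9% ± 1.5 (n = 3) in that order of genes. Claudins outside the 10 made up at most 7.22% of the claudin counts of a library, in FIPC-SOs.

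**Figure D1:**
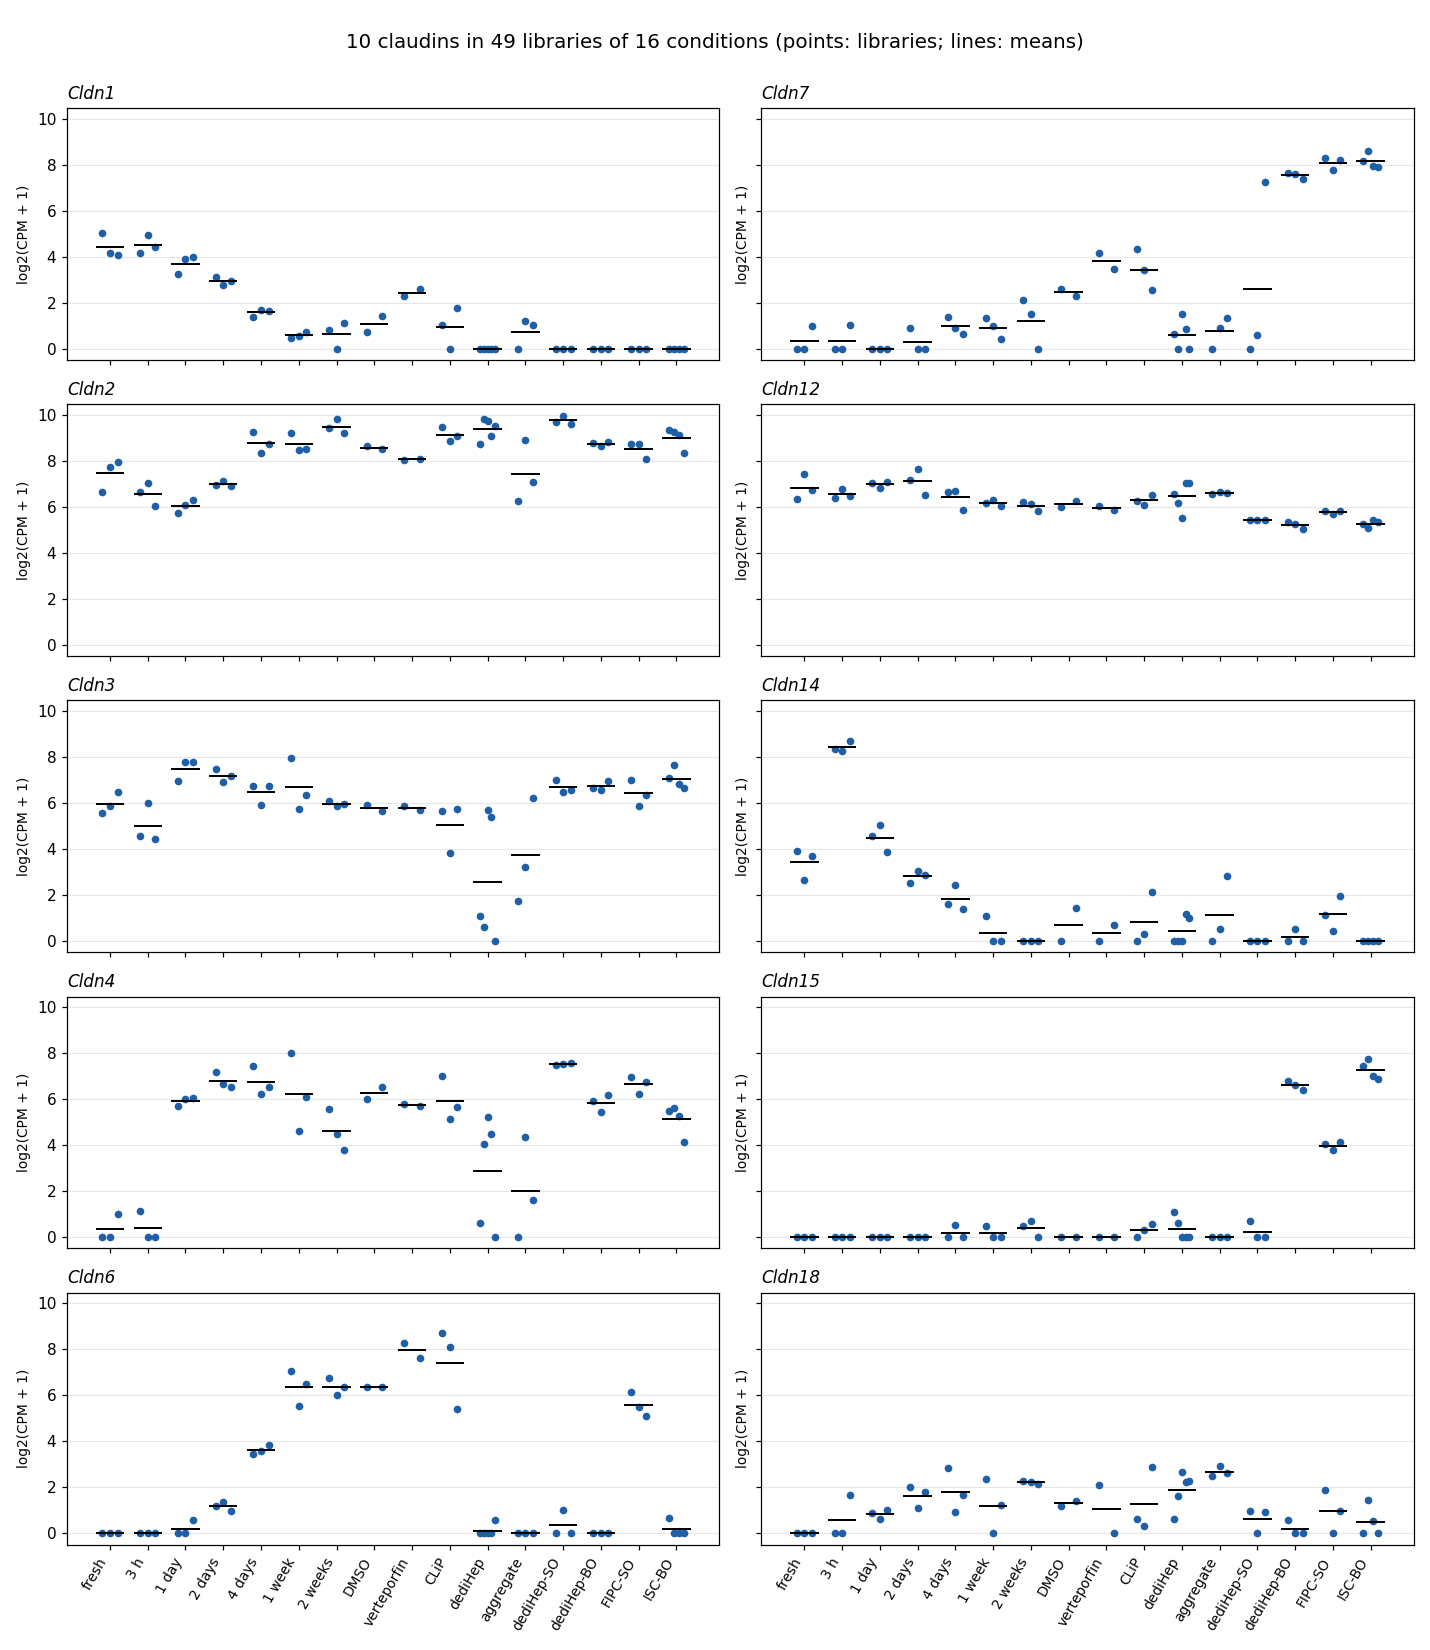
Level of each claudin, as log2(CPM + 1), in the 49 libraries of the 16 conditions (points, libraries; lines, means of the log values). Cldn2 and Cldn12 are high in every library, Cldn14 peaks at 3 h, Cldn6 appears from 2 days of culture and in CLiPs and FIPC-SOs, and Cldn15 is confined to dediHep-BOs, FIPC-SOs and ISC-BOs apart from libraries with 1 or 2 counts.

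**Figure D2:**
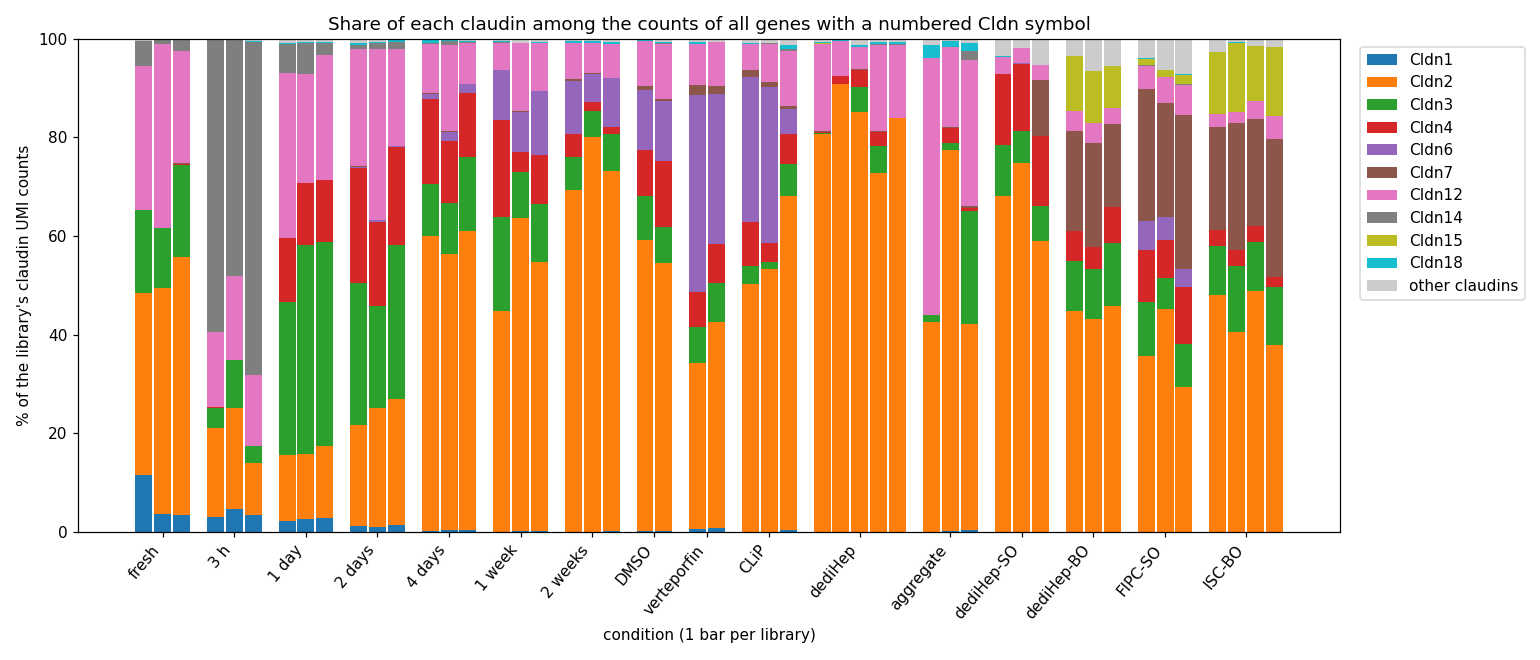
Share of each claudin among the counts of all numbered Cldn genes, 1 bar per library, in percent. Cldn14 takes 47.9% to 67.4% of the 3 h libraries, Cldn2 72.8% to 90.8% of the dediHep libraries, and Cldn7 and Cldn15 appear as blocks in the budding organoids.

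To follow the claudins as hepatocytes enter culture, each time point was compared with FH in a single edgeR quasi-likelihood fit over the 7 time points. A gene was called when its Benjamini-Hochberg adjusted p was under 0.1 and its absolute log2 fold change over 2. Of the 10 claudins 7 had enough counts to be tested, Cldn7, Cldn15 and Cldn18 being too low. At 3 h, 1 of the 7 was called, higher, against 6.91% of all genes tested. At 1 day 1 was called higher (17.4% of all genes), and at 2 days 2 were called higher (21.3%). At 4 days, 1 week and 2 weeks, 2 were called higher and 2 lower each time, against 23.8%, 25.9% and 29.5% of all genes tested. Only 7 genes were tested, and the members were chosen with earlier results of these data known. The counts are therefore set beside the shares of all genes without a reading about claudins as a family. The median log2 fold change of the 7 was 0.37 at 4 days, 0.80 at 1 week and -0.19 at 2 weeks, and that of all genes tested 0.10, 0.17 and 0.04.

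Cldn14, which encodes a sealing claudin, had the briefest rise. FH libraries were at 14.1, 5.22 and 11.97 CPM, and those at 3 h at 326, 309 and 412 CPM. By 1 day the values were 22.8, 32.0 and 13.6 CPM and at 2 days 4.67, 7.26 and 6.26 CPM. No 3 h library overlaps with any other library of the series. At 3 h the log2 fold change over FH was 5.04 ± 0.51 (SE, adjusted p = 3.0e-06, higher in 3 of 3 libraries). At 4 days, with 2.04, 4.36 and 1.61 CPM, Cldn14 lay below FH by a log2 fold change of -2.08 ± 0.58 (adjusted p = 0.0065), a call that fell short of the fold threshold when FH replicate 1 (log2 fold change -1.80), FH replicate 3 (-1.98), 4-day replicate 1 (-1.88) or 4-day replicate 3 (-1.84) was left out, and without the count filter (-1.98). It was lower at 1 week, where 1 of the 3 libraries had 3 counts and the others 0 (28.04-fold lower in summed counts, 95% counting interval 8.69 to 144, adjusted p = 2.4e-05). At 2 weeks no count was left in the 3 libraries, at least 18.6-fold lower than in FH with a floor of 3 counts over the group (adjusted p = 1.3e-05). Without TMM factors the 3 h mean is 224 CPM in place of 349 CPM and the FH mean 7.19 CPM in place of 10.4 CPM, since the factors of both groups are low.

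Cldn1, the claudin of the hepatocyte and skin barrier, declined over the whole course. Its values were 31.5, 17.0 and 15.96 CPM in FH, 16.8, 29.5 and 20.3 CPM at 3 h, 8.60, 13.7 and 14.7 CPM at 1 day, and 7.64, 5.73 and 6.74 CPM at 2 days. At 4 days the libraries were at 1.63, 2.18 and 2.14 CPM, and at 1 week at 0.373, 0.478 and 0.660 CPM. FH and 3 h overlap, and from 1 day on every library lies below every FH library. The log2 fold change was -3.54 ± 0.50 at 4 days (adjusted p = 5.3e-06) and -5.38 ± 0.57 at 1 week (adjusted p = 8.8e-08). At 2 weeks, with 3 counts over the libraries, it was 37.3-fold lower in summed counts (95% counting interval 12.1 to 186, adjusted p = 3.4e-07). At 1 and 2 days the differences, -0.98 ± 0.43 and -1.84 ± 0.44, had adjusted p of 0.085 and 0.0021 and did not reach the fold threshold, which the 2-day value did without FH replicate 3 (-2.02, adjusted p = 0.0026).

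Cldn4, which seals ducts and gut epithelium, went from near absence to one of the main claudins within a day. A single UMI was counted over the FH libraries and a single one over those at 3 h. At 1 day the values were 51.6, 64.1 and 65.7 CPM, at 2 days 142, 99.0 and 92.5 CPM, and at 4 days 174, 72.8 and 91.0 CPM. Summed counts were 161-fold higher at 1 day than in FH (95% counting interval 28.8 to 6384, adjusted p = 3.1e-05, higher in 3 of 3 libraries). After that the libraries diverged, with 257, 23.4 and 66.6 CPM at 1 week and 45.8, 21.2 and 12.6 CPM at 2 weeks. Both times were called over FH (adjusted p = 2.4e-06 and 0.00022), and the 1-week libraries span those of 1, 2 and 4 days.

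Cldn6, the claudin of immature epithelia, came later. FH and 3 h libraries had 0 counts and those at 1 day a single count among them. Values were 1.27, 1.53 and 0.964 CPM at 2 days, 9.80, 10.9 and 13.4 CPM at 4 days, 133, 45.0 and 87.8 CPM at 1 week and 108, 63.1 and 81.3 CPM at 2 weeks. From 2 days on no library overlaps with FH, and from 1 day to 1 week all libraries of a time lie above all those of the time before. Against a floor of 3 counts over the FH group, Cldn6 was at least 10.0-fold higher at 4 days, at least 82.3-fold at 1 week and at least 79.9-fold at 2 weeks (adjusted p = 5.1e-05, 4.6e-08 and 4.5e-08). The call at 2 days rests on 9 counts (adjusted p = 0.056) and was lost with DESeq2 (adjusted p = 0.14), with all 49 libraries in 1 fit (0.13) and without FH replicate 1 (0.13), 2 (0.11) or 3 (0.14).

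Cldn2, the cation and water channel claudin, dipped and then climbed. It was at 100, 214 and 247 CPM in FH, at 52.5, 67.1 and 77.3 CPM at 1 day, and at 605, 325 and 429 CPM at 4 days. At 1 day all libraries were below FH and from 4 days on all were above. Its log2 fold change was -1.68 ± 0.34 at 1 day (adjusted p = 0.00057), 1.14 ± 0.33 at 4 days (0.0088) and 1.82 ± 0.34 at 2 weeks (0.00013), each short of the fold threshold. After correction for repeated UMIs the 2-week change became 2.14 (adjusted p = 9.2e-05), past the threshold, and without FH replicate 3 it was 2.07 (adjusted p = 0.00021). The size of these changes depends on the scaling. Without TMM factors the Cldn2 means were 124 CPM in FH, 62.3 CPM at 1 day, 508 CPM at 4 days and 721 CPM at 2 weeks.

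Cldn3, a sealing claudin of liver and gut, and Cldn12, a claudin with a broad distribution, were never called in the time course. Cldn3 was at 45.7, 57.4 and 88.8 CPM in FH and at 122, 216 and 219 CPM at 1 day, where all libraries lay above FH by a log2 fold change of 1.37 ± 0.47 (adjusted p = 0.030). Cldn12 lay between 54.9 and 201 CPM in all 21 libraries of the course, and its differences from FH at 1 week (-0.89 ± 0.33, adjusted p = 0.032) and 2 weeks (-0.999 ± 0.33, adjusted p = 0.016) were below the fold threshold. These differences depend on the scaling. Without TMM factors the Cldn12 means were 79.5 CPM in FH, 80.3 CPM at 1 week and 65.8 CPM at 2 weeks. Cldn7 stayed at 3.38 CPM or less and Cldn15 at 0.327 CPM or less as a condition mean, too low for a test. Cldn18, the stomach and lung claudin, had 0 counts in FH and 3.75, 3.64 and 3.43 CPM at 2 weeks, at least 3.28-fold higher in summed counts, but was below the count filter. Tff1, a stomach marker, was at 288, 180 and 522 CPM at 4 days, where the other 5 markers of the stomach and lung list had no count.

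**Figure D3:**
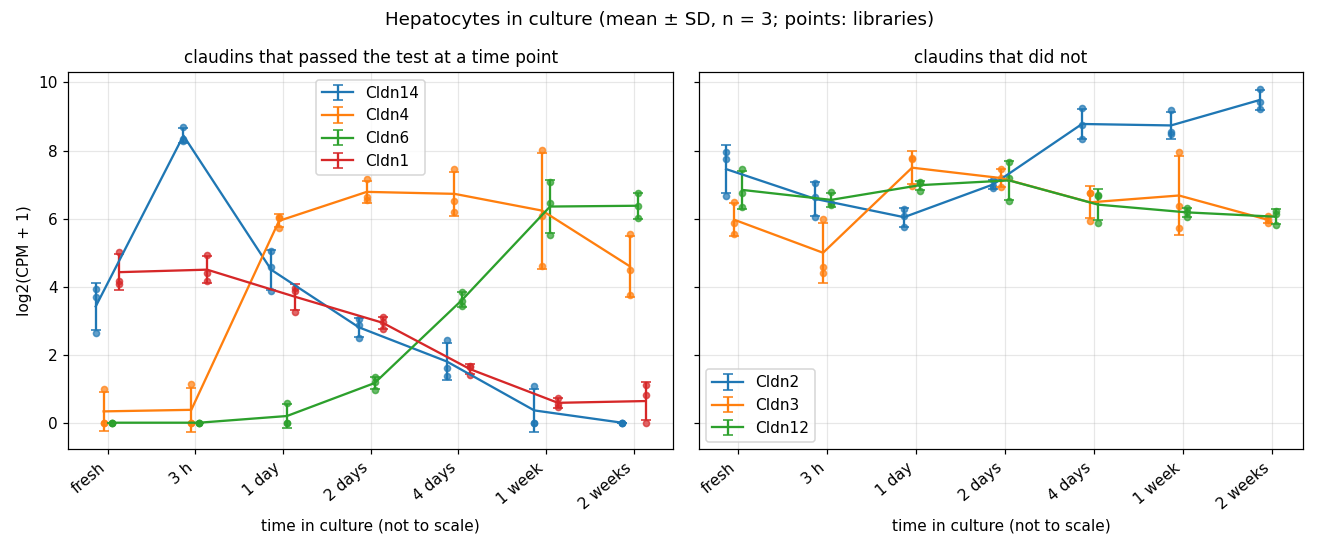
Claudins in FH and cultured hepatocytes as log2(CPM + 1), mean ± SD of 3 libraries with each library as a point, against time in culture (not to scale). On the left Cldn14 peaks at 3 h, Cldn1 declines, Cldn4 appears between 3 h and 1 day and Cldn6 between 2 days and 1 week. On the right Cldn2, Cldn3 and Cldn12, which were not called, stay above 4 on this scale in every library.

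DediHeps were compared with FH to see which claudins the established cultures keep. Of 5 members tested 1 was called higher and 1 lower, against 25.7% of all genes tested. Cldn1 had 0 counts in all 5 dediHep libraries, at least 83.2-fold below FH (adjusted p = 0.00016). Cldn4 was at 0.547, 15.8, 36.4, 21.6 and 0 CPM, so that 2 of 5 cultures were in the range of FH and 3 above it. Its summed counts were 47.2-fold higher than in FH (95% counting interval 8.38 to 1873, adjusted p = 0.063), a call lost when FH replicate 1, 2 or 3 was left out (adjusted p = 0.15, 0.17 and 0.13). Cldn2 was at 422, 899, 863, 548 and 741 CPM, above every FH library, with a log2 fold change of 1.68 ± 0.39 (adjusted p = 0.0060) that became 2.09 after correction for repeated UMIs. Without TMM factors the Cldn2 means were 746 CPM in dediHeps and 124 CPM in FH, in place of 695 CPM and 187 CPM. Cldn6, at 63.1 CPM or more in every 2-week culture, had a single count over the 5 dediHep libraries. Summed counts at 2 weeks were 1030-fold those of dediHeps (95% counting interval 184 to 40788), a pair that was not part of the planned comparisons and carries no test.

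Cldn3 split the dediHep cultures. Replicates 1, 2 and 5 had 1.09, 0.508 and 0 CPM, and replicates 3 and 4 had 51.5 and 41.5 CPM. Against FH, dediHeps had a log2 fold change of -1.96 ± 1.18 for Cldn3 (adjusted p = 0.22), which was not called. The culture names in the labels tie the 3 aggregates to dediHep replicates 1, 2 and 4, and Cldn3 kept their order in part, with 2.32, 8.26 and 73.3 CPM. Without the last of these, aggregate replicate 3, Cldn3 was called lower in aggregates than in FH (log2 fold change -3.54, adjusted p = 0.0034), which it was not with all 3. The dediHep-SOs, named after dediHep replicates 1, 3 and 2, were at 127, 86.8 and 94.1 CPM and had no such split. Cldn4 in dediHeps did not follow Cldn3 throughout, since replicate 2 had 15.8 CPM of Cldn4.

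The fit of aggregates against dediHeps used all 5 dediHep libraries without pairing. It gave 0 calls among 4 members tested with edgeR, against 9.51% of all genes tested, with 1 member at an unadjusted p under 0.05 and 0 called by DESeq2. That member was Cldn2, at 75.8, 475 and 135 CPM in aggregates, with a log2 fold change of -1.58 ± 0.54 (adjusted p = 0.073). The dediHeps of the same culture names were at 422, 899 and 548 CPM in that order, each above its aggregate. With a block by culture name Cldn2 was not called either. Leaving out aggregate replicate 2, the library with 475 CPM, moved the log2 fold change of the fit without pairing to -2.66 (adjusted p = 0.0073). Against FH, aggregates had 1 of 4 members called, lower, with 16.6% of all genes called. Cldn1 had 0, 3 and 2 counts in the aggregates and had a log2 fold change of -4.66 ± 0.68 (adjusted p = 0.00056). Cldn14 was at 0, 0.435 and 6.15 CPM and Cldn18 at 4.64, 6.52 and 5.13 CPM, the highest condition mean of Cldn18 (5.43 CPM ± 0.97).

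Spherical organoids of dediHep origin were compared with all 5 dediHep libraries, without pairing, and with FIPC-SOs. Their culture names are those of dediHep replicates 1, 2 and 3, so dediHep replicates 4 and 5 have no organoid library of their name. Against dediHeps 1 of 4 members was called, higher, with 8.76% of all genes called. This was Cldn4, at 177, 183 and 189 CPM, above all libraries of other conditions except 1 at 1 week. The log2 fold change was 3.63 ± 0.94 (adjusted p = 0.030, 3 of 3 libraries above all 5 dediHep libraries). Against FIPC-SOs, 2 of 7 members were called, both lower in dediHep-SOs, with 8.91% of all genes called. Cldn6 was at 0, 1.004 and 0 CPM against 70.0, 44.5 and 33.3 CPM (178-fold lower in summed counts, 95% counting interval 48.9 to 1472, adjusted p = 0.00031). Cldn15 was at 0.630, 0 and 0 CPM against 15.5, 12.7 and 16.5 CPM (55.0-fold lower, 95% counting interval 14.9 to 459, adjusted p = 0.00079). Cldn2 was higher in dediHep-SOs by a log2 fold change of 1.20 ± 0.25 (adjusted p = 0.011), short of the fold threshold.

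Cldn7 divided the dediHep-SOs. Replicates 1 and 2 had 0 and 0.502 CPM and replicate 3, of the same culture name as dediHep replicate 2, had 152 CPM, near the dediHep-BOs at 200, 196 and 165 CPM and below FIPC-SOs at 317, 220 and 290 CPM. With all 3 libraries Cldn7 was not called against FIPC-SOs (log2 fold change -2.44 ± 1.42, adjusted p = 0.28) or in dediHep-BOs over dediHep-SOs (1.86 ± 1.35, adjusted p = 0.32). With all 3 it was called against FIPC-SOs without the count filter (-2.45, adjusted p = 4.4e-10) and with all 49 libraries in 1 fit (-2.41, adjusted p = 0.053). Without dediHep-SO replicate 3 it was called in both (adjusted p = 1.9e-06 and 1.5e-07). In the same library Cldn15 and Cldn6 had 0 counts, and its intestinal marker sum of 824 CPM stood beside 775 and 714 CPM in the other dediHep-SOs.

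Budding organoids from Cdx2-transduced dediHeps differed from dediHep-SOs in 1 of 6 members tested, with 11.3% of all genes called. Cldn15, the sodium-passing claudin of the villus, was at 110, 97.7 and 84.1 CPM, 356-fold above dediHep-SOs in summed counts (95% counting interval 98.1 to 2946, adjusted p = 2.4e-05). Cldn4, at 59.6, 42.8 and 71.6 CPM, and Cldn2, at 442, 402 and 450 CPM, were lower in every dediHep-BO than in any dediHep-SO, by log2 fold changes of -1.67 ± 0.27 (adjusted p = 0.0017) and -1.02 ± 0.20 (adjusted p = 0.0044) that are under the fold threshold. Fibroblast markers summed to 204, 164 and 4.31 CPM in the 3 dediHep-BOs, the same order as Cldn15, and their part in the result was not tested.

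Compared with ISC-BOs, dediHep-BOs had 0 of 6 members called by edgeR, against 3.05% of all genes, with 2 members at an unadjusted p under 0.05 and 0 called by DESeq2. ISC-BO libraries were at 171, 212, 126 and 118 CPM of Cldn15 and at 285, 388, 247 and 235 CPM of Cldn7. All 4 lie above all dediHep-BOs for both genes, by 1.63-fold and 1.56-fold in summed counts. Cldn4 was at 43.3, 48.2, 37.4 and 16.4 CPM in ISC-BOs and overlaps with dediHep-BOs. Cldn6 had 0 counts in dediHep-BOs and 1 count over the 4 ISC-BOs, and Cldn1 had 0 counts in both.

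Among the intestinal organoids themselves, ISC-BOs against FIPC-SOs gave 1 member called higher and 1 lower of 7 tested, with 6.62% of all genes called. Cldn15 was higher in ISC-BOs by a log2 fold change of 3.33 ± 0.33 (adjusted p = 9.5e-05, 4 of 4 libraries above all FIPC-SOs). Cldn6 had 407 counts in FIPC-SOs and 1 in ISC-BOs (416-fold lower, 95% counting interval 74.3 to 16474, adjusted p = 2.8e-05). Cldn4 had a log2 fold change of -1.55 ± 0.37 (adjusted p = 0.017), under the fold threshold. The difference between SO and BO was then compared between the dediHep and the intestinal organoids by an interaction term. The intestinal pair also differs in age and source, fetal against adult, and the dediHep-BOs carry a Cdx2 transgene. The medium differs with organoid form as well, by the added activators of Wnt signalling. Organoid form cannot be told apart from these. Of 7 members 1 was called, against 9.45% of all genes, and 2 by DESeq2, which added Cldn6 (adjusted p = 0.0091), a gene with 2 counts in dediHep-SOs and 0 in dediHep-BOs. Cldn15 changed more in the dediHep organoids, by a log2 difference of 4.89 ± 0.68 (adjusted p = 0.00055), since FIPC-SOs already had it at 12.7 CPM or more. Cldn2 changed in the other direction, by -1.497 ± 0.35 (adjusted p = 0.015), short of the fold threshold. ISC-BOs against FH gave 3 members called higher and 1 lower of 7, with 28.1% of all genes called. Cldn15 was at least 141-fold higher (adjusted p = 4.2e-06), Cldn7 781-fold (95% counting interval 140 to 30855, adjusted p = 5.8e-07) and Cldn4 97.5-fold (17.4 to 3861, adjusted p = 6.9e-05), and Cldn1 was at least 62.1-fold lower (adjusted p = 3.8e-05). Cldn12, with a log2 fold change of -1.84 ± 0.35 (adjusted p = 0.00093), reached the fold threshold without FH replicate 1 (-2.05, adjusted p = 0.00032).

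**Figure D4:**
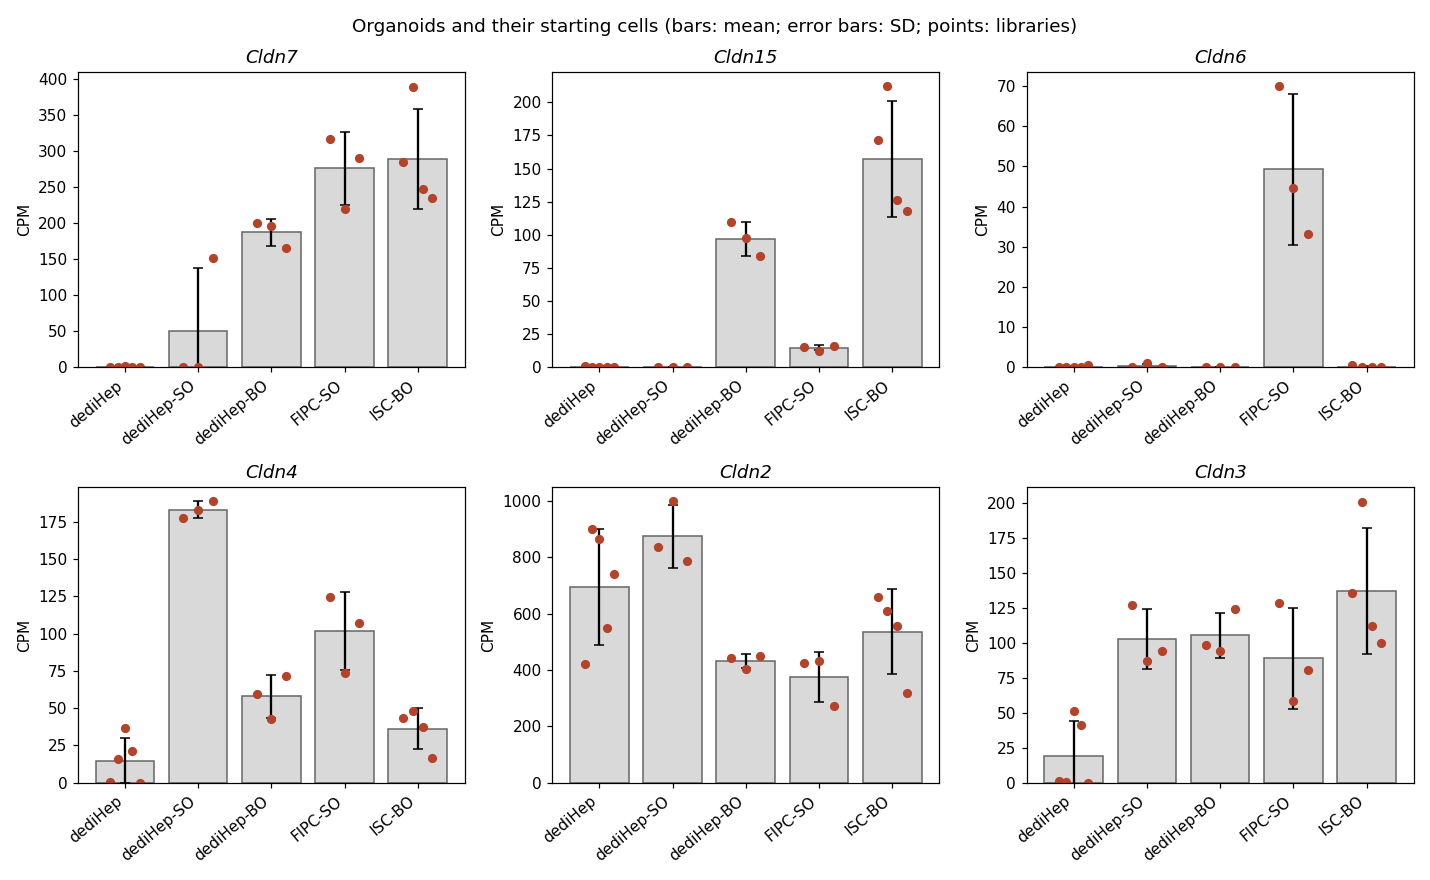
CPM of 6 claudins in dediHeps, dediHep-SOs, dediHep-BOs, FIPC-SOs and ISC-BOs (bars, mean; error bars, SD; points, libraries; each panel with its own axis from 0). A single dediHep-SO library has Cldn7 at 152 CPM, Cldn15 is at 84.1 CPM or more in every budding organoid, Cldn6 is present in FIPC-SOs and at 1.004 CPM or less in the others, and Cldn4 is highest in dediHep-SOs.

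CLiPs and dediHeps, both hepatocyte-derived progenitors in monolayer, differed in 1 of 5 members tested, with 3.04% of all genes called. Cldn6 was at 417, 273 and 41.5 CPM in CLiPs and had 1 count over the dediHeps (2893-fold higher in summed counts, 95% counting interval 519 to 114329, adjusted p = 0.0041). The CLiP libraries spread widely for this gene. Replicate 3, with 41.5 CPM, had 7318 CPM of hepatocyte markers against 1579 and 1493 CPM in the others, and also the most Cldn1 (2.44 CPM) and Cldn14 (3.41 CPM) of the 3. Cldn7 was at 19.5, 9.61 and 4.88 CPM in CLiPs, above all dediHep libraries.

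Verteporfin was compared with DMSO at 1 week of culture to see which genes depend on Yap activity, with 2 libraries in each group. The fit did not pair libraries of the same replicate number, and a block by that number added no call of a member. No member of 6 tested was called by edgeR, against 0.269% of all genes tested, with 3 at an unadjusted p under 0.05 and 0 called by DESeq2. Cldn6 was at 312 and 197 CPM with verteporfin and at 80.8 and 81.3 CPM with DMSO, the highest condition mean of this gene, and its log2 fold change of 1.65 ± 0.29 (adjusted p = 0.077) was under the fold threshold. Cldn7, at 16.7 and 9.95 CPM against 5.05 and 3.896 CPM, had a log2 fold change of 1.56 ± 0.50 (adjusted p = 0.39). Cldn1, at 3.85 and 4.98 CPM against 0.631 and 1.67 CPM, was 3.74-fold higher in summed counts (95% counting interval 1.17 to 15.6), too low for the fit. Cldn2, at 263 and 270 CPM against 396 and 367 CPM, and Cldn4, at 53.9 and 51.0 CPM against 63.1 and 91.3 CPM, were lower in both verteporfin libraries. The stomach and lung marker Tff1 was at 668 and 651 CPM with verteporfin against 78.2 and 58.4 CPM with DMSO, while Cldn18 had 5 counts in each group.

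**Figure D5:**
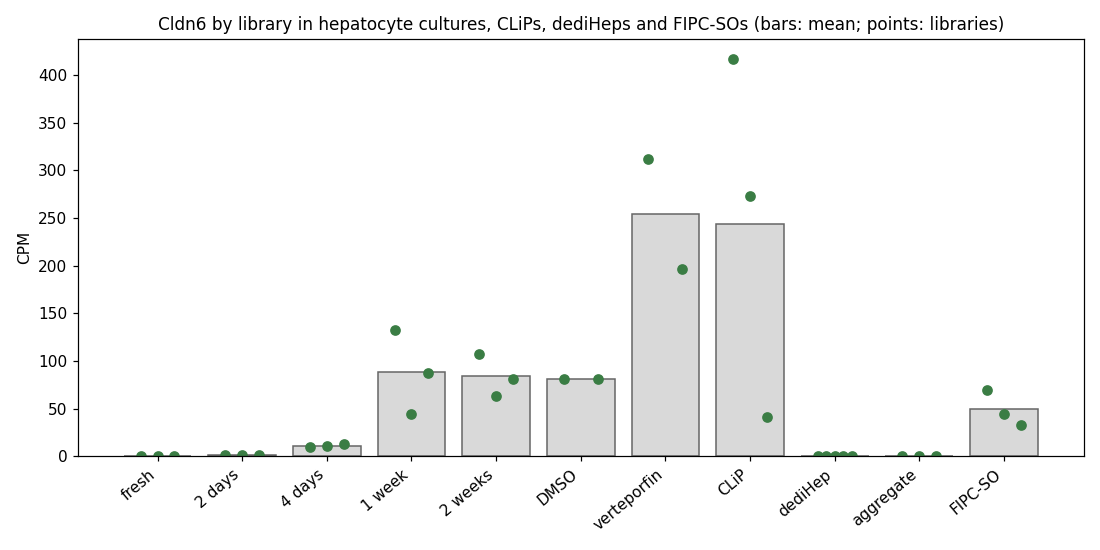
Cldn6 in CPM by library (points) with the mean (bars) in FH, cultured hepatocytes, 1-week cultures with DMSO or verteporfin, CLiPs, dediHeps, aggregates and FIPC-SOs. Verteporfin libraries (312 and 197 CPM) and 2 CLiP libraries (417 and 273 CPM) lie above all others, and dediHeps and aggregates are at or near 0.

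Ordered by condition mean, most neighbouring conditions were not apart. For Cldn3 the ranges of all 15 neighbouring pairs overlapped, and for Cldn4 only ISC-BOs lay wholly below the next higher condition, the verteporfin cultures. Cldn15 had 3 clear steps, from ISC-BOs (157 CPM ± 44) to dediHep-BOs (97.1 CPM ± 13) to FIPC-SOs (14.9 CPM ± 2.0) to all other conditions (0.327 CPM or less). In Cldn7 the ISC-BOs (289 CPM ± 70) and FIPC-SOs (276 CPM ± 50) overlapped and both lay above dediHep-BOs (187 CPM ± 19). Cldn12 had its lowest means in dediHep-SOs (41.9 CPM ± 0.51), ISC-BOs (37.7 CPM ± 3.9) and dediHep-BOs (36.4 CPM ± 4.4), of which neighbours in this order overlap while the dediHep-SOs lay above the dediHep-BOs, and every other condition lay above all 3.

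Of the 27 other genes with a Cldn symbol, 10 had no count at all. Cldnd1, which encodes a claudin domain protein, was called lower than in FH at 2 weeks (log2 fold change -2.33 ± 0.77, adjusted p = 0.016) and in aggregates (-3.13 ± 0.86, adjusted p = 0.020), with FH libraries spread from 29.9 to 308 CPM. Cldn8, a claudin of distal tubule and colon, was at 29.7 CPM ± 14 in dediHep-SOs and 35.3 CPM ± 9.2 in FIPC-SOs, against 1.82 CPM ± 1.7 in dediHep-BOs and 3.67 CPM ± 1.1 in ISC-BOs. It was called lower in dediHep-BOs than in dediHep-SOs (log2 fold change -4.01 ± 0.74, adjusted p = 0.0036) and in ISC-BOs than in FIPC-SOs (-3.33 ± 0.35, adjusted p = 0.00012). Cldn23 was at 45.1 CPM ± 14 in dediHep-BOs and 13.9 CPM ± 10 in ISC-BOs and was called in the interaction term (log2 difference 2.14 ± 0.72, adjusted p = 0.071). Of 20 other tight junction genes 17 were tested in the time course. At 2 weeks 3 of the 17 were called lower, namely Ocln, Marveld2 and Mpdz. Of all 12443 genes tested, 1909 were called lower and 1759 higher, together 29.5%. Ocln, which encodes occludin, fell from 115 CPM ± 21 in FH to 30.5 CPM ± 9.6 (log2 fold change -2.05 ± 0.34, adjusted p = 3.1e-05). In dediHep-SOs against dediHeps 2 of 17 were called higher, near the 8.76% of all genes called, namely Tjp3 (4.61 ± 0.77, adjusted p = 0.0030) and Marveld3 (2.40 ± 0.72, adjusted p = 0.056).

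The genes whose condition means followed each claudin most closely were ranked by Pearson's r of log2 values over the 16 conditions, among 14332 genes. This is a description over conditions that differ in depth and in part share a cell source. The ranking depends on the measure. By Spearman's rho of mean CPM, no match named below was among the 3 nearest genes of its claudin. For Cldn15 and Slc5a1 rho was 0.489, and for Cldn4 and Gm4294 it was 0.615. Cldn15 had the closest match, Slc5a1, the sodium-glucose transporter of the villus, with r = 0.995. Cldn1 was followed by Masp2 (0.960), a complement protease of hepatocytes, and Dmgdh (0.960), and Cldn7 by Rnf32 (0.960). For Cldn6 the nearest were Morn4 (0.927) and Sult4a1 (0.917), for Cldn2 Ccnd2 (0.925), a cyclin, and for Cldn4 the predicted gene Gm4294 (0.915) and then Shroom3 (0.913), a regulator of apical constriction. Cldn3 had no match above 0.801. Among the claudins themselves, Cldn7 and Cldn15 had r = 0.886 and Cldn1 and Cldn14 0.840, while Cldn1 and Cldn2 had -0.825.

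Cldn3 and Cldn4 lie 39280 bases apart on chromosome 5 (GRCm38; Cldn4 at chr5:134945119-134946934, minus strand, and Cldn3 at chr5:134986214-134987472, plus strand). In RefSeq promoters of GRCm38.p6, 250 bases before to 50 after a start site, 4 motifs were searched on both strands in the 16 windows of the 10 claudins and in all 32851 windows. TGANTCA, the AP-1 site, was in 7.81% of all windows and in 2 of the 16 claudin windows (Cldn4 and Cldn15). CATAAA, the core of the Cdx site, was in 11.9% and in 2 of 16 (Cldn14 and Cldn2). CATTCC, the TEAD site through which Yap acts, was in 14.7% and in 5 of 16 (Cldn15, Cldn7, Cldn14, Cldn6 and Cldn2). CAAAGTCCA, an HNF4 site, was in 0.475% and in no claudin window. Some stretches of Cldn4, Cldn14, Cldn6 and Cldn2 are shown as examples 5′ to 3′, with the match in capitals, and the other matches are not shown. A match is a description of these letters only.
Cldn4, AP-1 match on chr5:134947157-134947184, gene on the minus strand: tctaggctggTGACTCAgtgtctgtgtc
Cldn4, AP-1 match on chr5:134947076-134947103, gene on the minus strand: atactggcgggTGACTCAggggcccagg
Cldn14, Cdx match on chr16:94008870-94008897, gene on the minus strand: agaacagagacTTTATGagccggctgag
Cldn2, Cdx match on chrX:139800558-139800585, gene on the plus strand: gctgtgTTTATGaaggcttccttcctgc
Cldn6, TEAD match on chr17:23679353-23679380, gene on the plus strand: gcctccgccctCATTCCtactttcgacc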

How the data were processed

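RNA of 49 mouse samples was sequenced by CEL-seq2, and the authors deposited raw UMI counts per Ensembl gene, made with their celseq2 pipeline. The submitters' processing notes name Bowtie2, HTSeq and the build GRCm38. Whether counting used strand is not given in the sources used here. Counts were fitted with edgeR 4.0.16 (R 4.3.3): quasi-likelihood test, TMM factors, filterByExpr, Benjamini-Hochberg adjustment, with calls made at FDR below 0.1 for log2 changes beyond 2 in either direction. The time course was 1 fit of 7 groups, other comparisons used their own groups, and all p-values in the text come from these edgeR fits unless DESeq2 (1.42.0) is named. The scripts were tested on simulated data. Labels do not say that libraries of a group come from separate animals, so p-values measure only the spread between these libraries, and counting intervals cover counting error only. The members and lists were chosen with earlier results of these data known. Named genes are the 10 claudins, called genes of the other claudin and tight junction lists, and the nearest genes by Pearson's r. Aggregates and dediHeps share culture names and their deviations correlated in all 3 pairs (0.181 to 0.358). Alternatives were another scaling, no count filter, UMI correction, DESeq2, a replicate block, 1 fit of all 49 libraries and leaving out each replicate. A gene of the tight junction list is not reported here.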

Additional observations from a re-analysis of the deposited data

Results flagged for a closer look

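Cldn6 had 1 count in dediHep replicate 5 (0.482 CPM) and 0 in the other 4 dediHep libraries, and 1 count in ISC-BO replicate 1 (0.562 CPM) and 0 in the other 3, each flagged as the only library of its group with a count. Where 1 library has a count and the others have 0, Dixon's gap ratio is 1 by construction, so nothing is read from either. The difference between spherical and budding organoids was unlike in the dediHep and the intestinal organoids, by the interaction term of the edgeR fit, for Cldn15 (log2 difference 4.89, adjusted p = 0.00055) and for Cldn2 (-1.497, adjusted p = 0.015). Organoid form cannot be told apart here from age and source, from the Cdx2 transgene or from the activators of Wnt signalling in the medium.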

How the results depend on the processing

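Of 31 calls of claudins 28 held under every alternative run, 3 were lost under some (Cldn6 at 2 days, Cldn14 at 4 days and Cldn4 in dediHeps) and 0 reversed. Depth limits the lowest claudins, since 3 counts are 0.775 to 3.48 CPM before TMM scaling. Of the 160 means of a claudin in a condition, 17 moved by more than their SD without TMM factors and 30 with correction for repeated UMIs. Numbers of called genes moved by over 1.5 times in the following cases, and the cause was not tested except that more genes are tested without a filter. Without the count filter they were 4481 for dediHeps against FH (2901 with it), 1608 for aggregates against dediHeps (1071), 3007 for aggregates against FH (1580), 1652 for dediHep-SOs against dediHeps (1005), 2052 for dediHep-SOs against FIPC-SOs (1034), 2385 for dediHep-BOs against dediHep-SOs (1275), 798 for dediHep-BOs against ISC-BOs (345), 1504 for ISC-BOs against FIPC-SOs (771), 5055 for ISC-BOs against FH (3173), 714 for CLiPs against dediHeps (352), 90 for verteporfin (28) and 1758 for the interaction (1170). With all 49 libraries in 1 fit they were 1805 for aggregates against dediHeps, 2725 for aggregates against FH, 1678, 1558 and 1953 for dediHep-SOs against dediHeps, FIPC-SOs and dediHep-BOs, 1169 for CLiPs and 0 for verteporfin in edgeR (329 at an unadjusted p under 0.05). DESeq2 gave 537 for CLiPs. With a replicate block the count was 230 for CLiPs and 59 for verteporfin. The block was by culture name for aggregates and dediHep-SOs against dediHeps and by the replicate number of the sample title elsewhere. The 3 h libraries' own names carry other numbers than those of FH. Only libraries whose name or number occurs in every group were kept. Against FH and CLiPs this left out dediHep replicates 4 and 5. With the block, calls were added of Cldn7 in dediHep-SOs against FIPC-SOs (-5.16, adjusted p = 0.011) and dediHep-BOs against dediHep-SOs (5.15, adjusted p = 0.094), and of Cldn3 in aggregates against FH (-2.29, adjusted p = 0.023). Cldn3 was also called in dediHeps against FH (-3.42, adjusted p = 0.0049). There the block cannot be told apart from leaving out replicate 4, which had 41.5 CPM of Cldn3. Apart from aggregates against dediHeps, the samples share only a number or did not deviate together. Verteporfin and DMSO libraries share only a number, yet their deviations correlated at 0.436. Whether they are paired was not tested. Leaving out single replicates gave 620 to 1527 at 3 h (highest without FH replicate 1), 1023 to 1716 for dediHep-SOs against FIPC-SOs, 1234 to 2108 for dediHep-BOs against dediHep-SOs and 749 to 2157 for the interaction (all highest without dediHep-SO replicate 3), 109 to 488 for CLiPs (lowest without CLiP replicate 1) and 33 to 106 for verteporfin.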
